A study of Mus musculus with 6 samples.

Results

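The tumor suppressor p53, encoded by Trp53, and its direct target genes were compared between scrambled control and IFNγR1KO B16 melanoma cells. The 32 genes were taken by symbol from a list of known p53 targets, which was drawn up with earlier results of these data known, and each symbol matched 1 row among the 55335 genes of the count tables. They comprised Trp53 itself, genes whose products limit or assist p53, and target genes for cell death, growth arrest, and DNA repair. RNA-Seq was run on 3 libraries of scrambled control cells, which carry the genotype label WT, and on 3 libraries of IFNγR1KO cells, which lack the ligand-binding chain of the IFN-γ receptor. B16 is a pigmented mouse melanoma line. Per the study's methods, cells of both groups were transduced with lentiCRISPR v2, a Cas9 and guide vector, selected with puromycin and grown as single clones. The control guide was directed at GFP and the other guide at Ifngr1, and cells were seeded overnight before lysis, with no cytokine named for these libraries. The sources used here do not state which guide or how many clones were sequenced, so that loss of the receptor and the history of a clone cannot be told apart, and the p-values below measure the spread between cultures only.

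p53 is a transcription factor that is made and degraded continuously in unstressed cells, where the ubiquitin ligase MDM2 binds it and marks it for the proteasome. DNA damage, oncogenic signals, and nucleolar or metabolic stress release p53 from MDM2, mostly without a change in Trp53 mRNA, and p53 then activates genes with a response element made of a pair of decamers. MDM2 is one of these targets, which closes a negative feedback loop, and Cdkn1a, which encodes the cyclin-dependent kinase inhibitor p21, is the classical target for growth arrest.

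The deposited tables hold between 9402640 and 10579788 reads on genes in the scrambled control libraries and between 6698956 and 7409479 in the IFNγR1KO libraries. Thus every IFNγR1KO library was shallower than every control. Over genes, IFNγR1KO libraries 10 and 11 were closest to each other (chi-square per degree of freedom 2.62), whereas library 12 stood further off (18.4 from library 10 and 15 from library 11) and was about as near to scrambled control library 3 (19.6), which itself stood off from control libraries 1 and 2 (22.7 and 20.4). By Pearson correlation of log2 CPM, library 12 was nearer to libraries 10 and 11 (r = 0.978 and 0.982) than to scrambled control library 3 (0.970). Without IFNγR1KO library 12, 11 of the genes described here were higher and 2 lower, where 20% of all genes tested were called. Without scrambled control library 3, 8 were higher and 2 lower, where 13% of all genes tested were called. With every library kept, 9 were higher and 1 lower, where 15.3% of all genes tested were called. All 7 melanoma and melanocyte markers passed the filter on low counts, with a summed level of 31716 to 34659 CPM (reads scaled to a common library size) in scrambled control and 27898 to 32830 CPM in IFNγR1KO libraries, whereas 9 of 11 markers of other cell types did not pass, and Cd3e, Itgam, and Hbb-bs had 0 counts in every library. The summed level of those 11 markers was 4.68 to 6.84 CPM in scrambled control and 6.82 to 8.72 CPM in IFNγR1KO. Most of it came from Pdgfra and Col1a1, which went opposite ways. Col1a1 was higher in IFNγR1KO by 1.96 on the log2 scale (adjusted p = 0.00175, edgeR). Pdgfra was at 4.13, 3.18, and 3.48 CPM in scrambled control and at 2.42, 1.76, and 2.11 CPM in IFNγR1KO libraries. Its log2 fold change was -0.77 (adjusted p = 0.0866, edgeR), so that it was not called. Ifngr1 mRNA, which a small Cas9 deletion need not remove, was at 16.7, 14.3, and 16.6 CPM in scrambled control and at 11.4, 11.5, and 11.5 CPM in IFNγR1KO libraries, a log2 fold change of -0.47 (adjusted p = 0.0729). It therefore did not pass the threshold and checks the labels only in part.

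To look for sequence matches to the p53 response element, the 250 bases before each RefSeq transcription start were searched on both strands for the p53 consensus half-site decamer, with RefSeq promoters of GRCm38.p6. Of the 32 genes, 23 had an entry, and 9 of the 23 (39.1%) held at least 1 decamer, against 8.20% of the 27025 genes in the promoter table. The genes were listed as known p53 targets, so that this contrast is no independent support. A decamer in any entry counted, and the 23 genes had 33 entries, against 32851 for the 27025 genes. The sequences below are those that the expression results refer to, written 5′ to 3′ on the strand of the gene, with the decamer or the closest pair of decamers in capitals. The closest pair is the one with the fewest mismatches, whatever its gap up to 13 bases. Cdkn1a and Gadd45a, further p53 targets outside the 32, stand beside them as pairs with 0 and 2 mismatches.

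Mdm2, chr10:117710900-117710979, minus strand: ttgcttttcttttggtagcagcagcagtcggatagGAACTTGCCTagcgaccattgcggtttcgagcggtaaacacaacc
Rchy1, chr5:91962602-91962681, minus strand: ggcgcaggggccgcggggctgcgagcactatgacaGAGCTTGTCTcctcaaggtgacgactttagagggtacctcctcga
Trp53, chr11:69580249-69580328, plus strand: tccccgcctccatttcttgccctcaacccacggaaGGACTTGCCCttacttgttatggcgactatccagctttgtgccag
Ccng1, chr11:40755427-40755516, minus strand: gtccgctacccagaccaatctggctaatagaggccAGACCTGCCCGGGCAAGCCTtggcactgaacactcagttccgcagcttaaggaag
Bax, chr7:45467055-45467148, minus strand: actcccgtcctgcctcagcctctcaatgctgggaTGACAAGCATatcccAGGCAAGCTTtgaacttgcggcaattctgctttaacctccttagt
Bbc3, chr7:16309451-16309540, plus strand: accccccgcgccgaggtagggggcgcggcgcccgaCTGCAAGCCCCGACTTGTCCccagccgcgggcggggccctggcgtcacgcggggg
Cdkn1a, chr17:29090871-29090972, plus strand: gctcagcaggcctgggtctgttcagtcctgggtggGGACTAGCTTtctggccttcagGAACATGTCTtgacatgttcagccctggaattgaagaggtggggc
Gadd45a, chr6:67037408-67037503, minus strand: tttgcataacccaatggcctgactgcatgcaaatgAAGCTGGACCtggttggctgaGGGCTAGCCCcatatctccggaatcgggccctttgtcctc

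Mdm2 and Rchy1 held a single decamer, at bases -186 to -177 and -90 to -81 relative to the start, and Trp53 held one at bases -75 to -66. A pair of adjacent decamers with at most 2 mismatches and a gap of at most 13 bases was found in Ccng1, with 1 mismatch and no gap, and in Bax, with 2 mismatches. Such a pair was present in 3.87% of all genes in the table. Bbc3 held no exact decamer, and its closest pair had 3 mismatches. The start used for Bbc3 was not found in a GENCODE transcript, unlike the starts of the other genes shown. These matches are letters in a short window and not measured binding sites, and many known p53 elements lie in introns or further upstream.

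Across the 32 genes, the data showed 9 genes that were higher and 1 gene that was lower in IFNγR1KO cells, while Trp53 itself and the classical target Cdkn1a did not pass the test. The 9 higher genes were Mdm2, Rchy1, Siah1a, Trp53inp1, Bbc3, Btg2, Trp53cor1, Cd82, and Rrm2b, with folds between 1.37 and 2.79, and the lower gene was Gtse1, at 0.599 of its control level. A gene was called at an adjusted p under 0.05 in edgeR's quasi-likelihood test, with adjustment over all 13642 genes tested. The filter on low counts kept 27 of the 32 genes, and the lowest level of any of the 27 in a single library was 2.39 CPM, for Btg2 in scrambled control.

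The 10 genes called made up 37.0% of the 27, beside 15.3% of all genes tested, of which 7.73% were called higher and 7.62% lower. With the study's limit of an absolute log2 fold change above 1 for a DEG, 5 of the 27 were DEGs with a higher level in IFNγR1KO, beside 3.25% of all genes, and 0 were DEGs with a lower level, beside 1.96% of all genes, where DEGs of either direction made up 5.20%. That count of 0 was also 0 at an unadjusted p under 0.05 in edgeR, in DESeq2 and in limma-voom. The log2 fold change was above 0 for 18 genes and below 0 for 9, where 49.8% of all genes tested were above 0, with a median of 0.23 against -0.00 over all genes tested. The median size of the change regardless of direction was 0.44, against 0.25 over all genes tested. With every library thinned at random to the total of the shallowest, 8 genes were higher and 1 was lower. In that fit 14.5% of all genes tested were called.

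Counted by library, 11 of the 27 genes were higher in every IFNγR1KO library than in any scrambled control library (16% of all genes tested) and 4 were lower in every one (16.6%), whereas the groups overlapped for 12. The summed level of the 32 genes was 1185, 1174, and 1207 CPM in scrambled control libraries 1, 2, and 3, and 1361, 1316, and 1281 CPM in IFNγR1KO libraries 10, 11, and 12. These sums did not overlap between the groups, as was so for the levels of 32.6% of all single genes tested. Abundant genes weigh most in such a sum. The mean of Mdm2 went from 118 to 163 CPM and that of Phlda3, which was not called, from 140 to 106 CPM. Since the genes were listed with results of these data already known, no p-value is attached to the sums or to the counts.

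By role, the calls are given beside the 15.3% of all genes tested. Among p53 and its regulators 4 of 8 (50.0%) were called, all higher. Among effectors of cell death 1 of 6 (16.7%) was called, a share near that of all genes, and the single death receptor that passed the filter was not called. Among genes of growth arrest, stress kinases, and signaling 3 of 8 were higher and 1 was lower, and among genes of DNA repair and nucleotide supply 1 of 4 (25%) was higher.

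**Figure D1:**
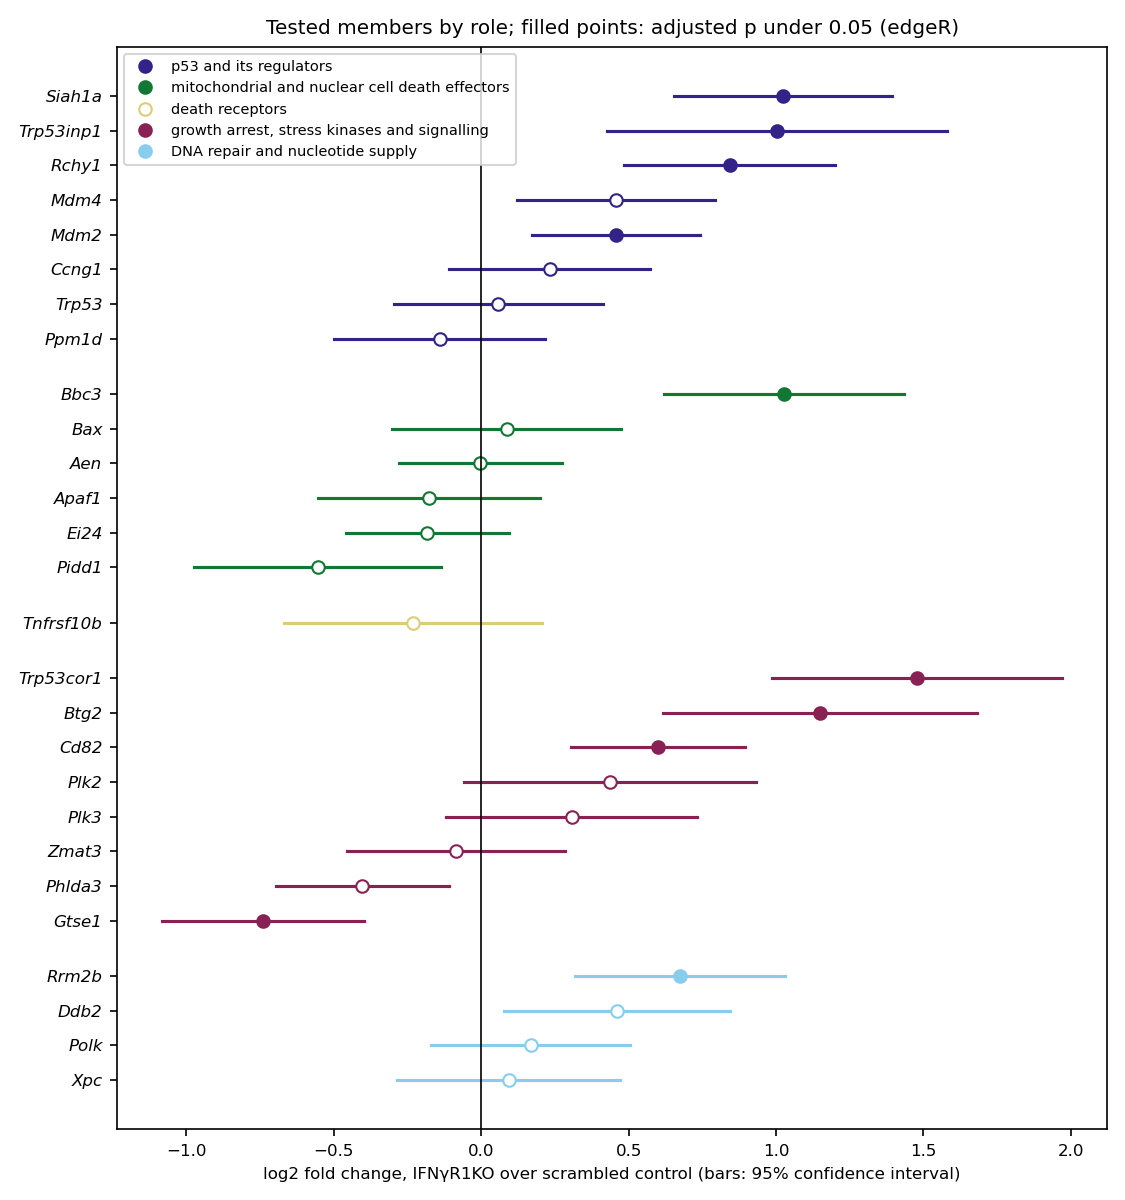
Log2 fold change of each of the 27 genes that passed the filter, IFNγR1KO over scrambled control, with bars for the 95% confidence interval and colors for the role. Filled points mark the 10 genes with an adjusted p under 0.05 in edgeR; 9 of them lie to the right of 0, from Mdm2 at 0.46 to Trp53cor1 at 1.48, and Gtse1 lies to the left at -0.74.

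The level of Trp53 (ENSMUSG00000059552, chr11:69580359-69591873, plus strand of GRCm38) gave the starting point. It was at 89.3, 106, and 120 CPM in scrambled control libraries and at 96.3, 99.7, and 133 CPM in IFNγR1KO libraries. The groups overlapped, and the spread within each exceeded the difference between their means of 105 ± 15.5 and 110 ± 20.2 CPM (SD, n = 3). The log2 fold change was 0.06, with a 95% confidence interval of -0.30 to 0.41 (adjusted p = 0.857).

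Mdm2 (chr10:117688875-117710758, minus strand), the main ubiquitin ligase of p53 and itself a target of p53, was at 122, 113, and 120 CPM in scrambled control and at 177, 164, and 148 CPM in IFNγR1KO libraries. Each IFNγR1KO library stood above each scrambled control library. The rise was 1.37-fold, a log2 fold change of 0.46 ± 0.13 (SE) with an adjusted p of 0.0340, and it was the smallest among the genes called. The call held in 1 of 6 fits that left out a library, with log2 fold changes between 0.39 and 0.52 and adjusted p-values up to 0.168, and it was lost without the filter on low counts (adjusted p = 0.0683). Mdm4, the partner that binds p53 and blocks its activation domain, was at a similar fold, with means of 49.7 ± 10.0 and 68.2 ± 2.95 CPM and no overlap, but its adjusted p was 0.0654. Mdm4 was called higher in 2 of 6 fits that left out a library.

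Rchy1 (chr5:91948904-91963068, minus strand), which encodes the p53 ubiquitin ligase PIRH2, was at 51.1, 49.3, and 44.4 CPM in scrambled control and at 104, 89.3, and 66.8 CPM in IFNγR1KO libraries. The IFNγR1KO libraries were widely spread but all above the controls. The log2 fold change was 0.84 ± 0.16 (SE; adjusted p = 0.00481). The antisense neighbor Thap6 shares 18.0% of the exonic bases of Rchy1 and was also higher, with a log2 fold change of 0.76. Reads over the shared bases cannot be told apart if the libraries did not keep the strand.

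Siah1a (chr8:86724007-86745934, minus strand), a ubiquitin ligase induced by p53, was at 18.0, 12.4, and 14.3 CPM in scrambled control and at 30.7, 32.4, and 27.8 CPM in IFNγR1KO libraries. The means differed 2.03-fold, with a log2 fold change of 1.02 ± 0.17 (SE; adjusted p = 0.00192). Reads of Siah1a could also stem from its close paralog Siah1b, which was at a log2 fold change of -0.15 (adjusted p = 0.645), and 6.0% of its exonic bases lie under Gm10638 on the other strand, which was higher by 1.19 on the log2 scale.

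Trp53inp1 (chr4:11156431-11174379, plus strand), a nuclear stress protein that assists the phosphorylation of p53, was at 7.06, 3.28, and 4.93 CPM in scrambled control and at 10.8, 11.4, and 8.29 CPM in IFNγR1KO libraries. The groups did not overlap, although scrambled control library 1 came close to IFNγR1KO library 12. The log2 fold change was 1.00 ± 0.27 (SE; adjusted p = 0.0240). The call was lost without scrambled control library 2 (adjusted p = 0.0958), without IFNγR1KO library 10 (0.0737) and without IFNγR1KO library 11 (0.10), and when every library was thinned to the smallest total (0.0543).

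The other regulators showed no call. Ccng1, which encodes cyclin G1, a recruiter of phosphatase PP2A to MDM2, had the highest level per exonic length among the regulators, and its 150, 111, and 144 CPM in scrambled control overlapped the 173, 167, and 135 CPM in IFNγR1KO libraries (log2 fold change 0.23, adjusted p = 0.371). Ppm1d, whose phosphatase WIP1 reverses the phosphorylation of p53, was at 14.9 ± 1.61 and 13.5 ± 0.468 CPM (SD, n = 3; adjusted p = 0.633). Of the 7 genes called that had a promoter entry, 2 held a decamer, namely Mdm2 and Rchy1, beside 7 of the 13 genes that were tested and not called.

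**Figure D2:**
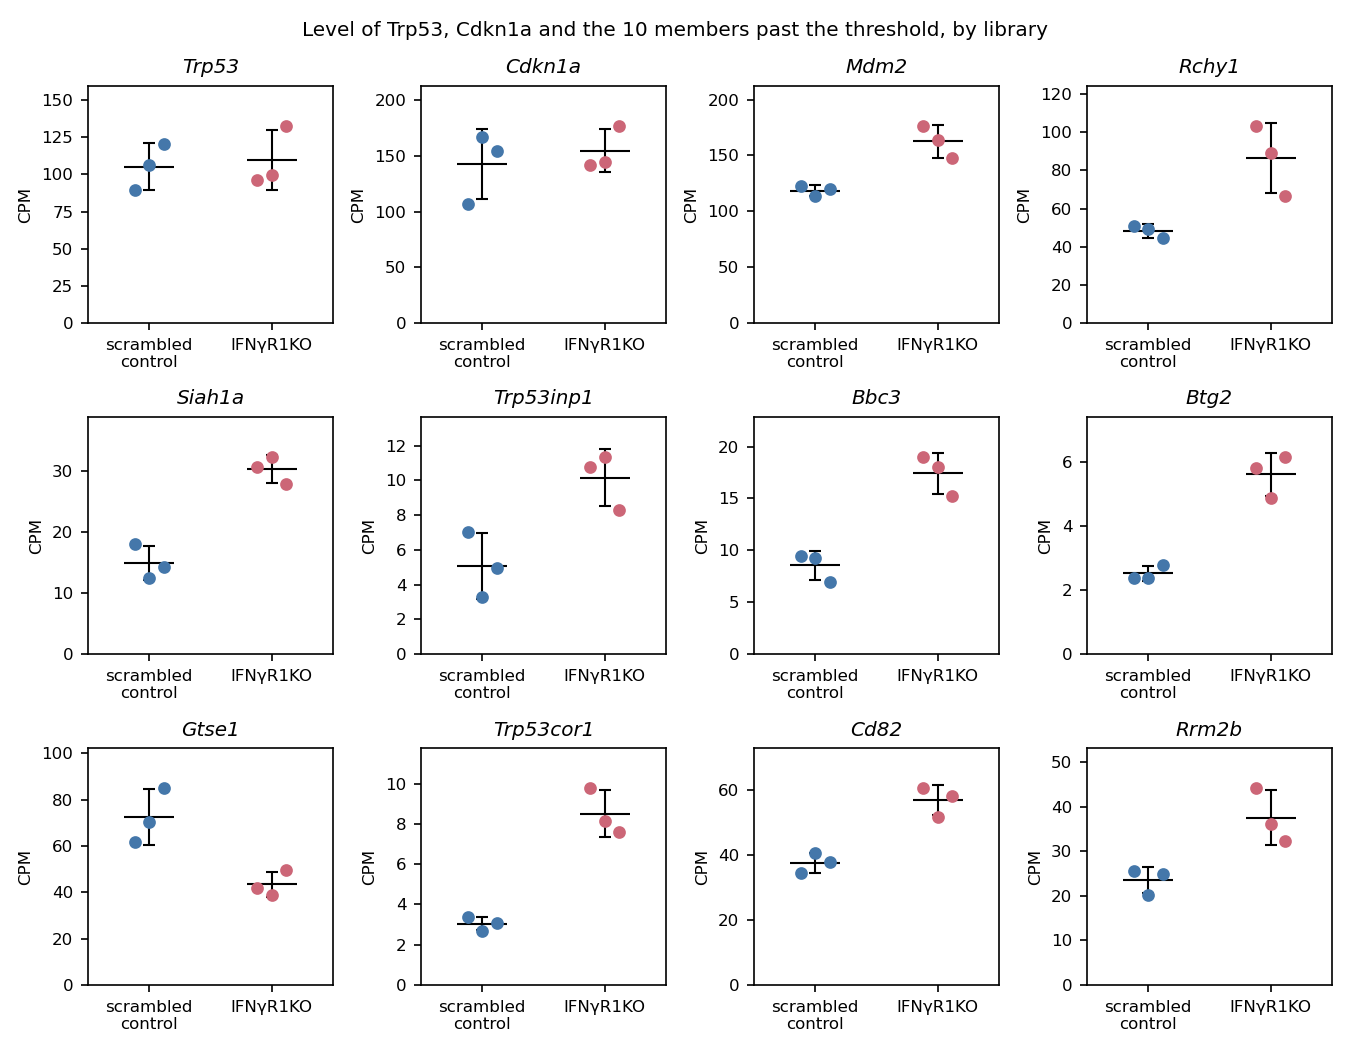
Level in CPM of Trp53, the classical target Cdkn1a, and the 10 genes past the threshold in each library; points are libraries, horizontal bars the group mean and error bars the SD of 3 libraries, with each axis starting at 0. The points of the groups overlap for Trp53 and Cdkn1a and are separate for the 10 others, including Gtse1, which is at 61.6 to 85.2 CPM in scrambled control and 38.7 to 49.5 CPM in IFNγR1KO.

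Among genes of cell death, Bbc3 (chr7:16308393-16318205, plus strand) was the gene called with every library kept. It encodes PUMA, a BH3-only protein that neutralizes survival proteins of the BCL2 family. It was at 9.44, 9.25, and 6.96 CPM in scrambled control and at 19.0, 18.0, and 15.2 CPM in IFNγR1KO libraries, with no overlap. The rise was 2.04-fold, with a log2 fold change of 1.03 ± 0.19 (SE; adjusted p = 0.00329), and it was called in all 6 fits that left out a library.

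The other 5 genes of this role that could be tested did not pass the threshold. Bax, the pore-forming protein of the mitochondrial outer membrane, was at 70.8, 100, and 63.6 CPM in scrambled control and at 92.1, 86.6, and 70.7 CPM in IFNγR1KO libraries, with a log2 fold change of 0.09 (95% confidence interval -0.30 to 0.47; adjusted p = 0.803). Ei24, a membrane protein of the endoplasmic reticulum, was at 124, 116, and 125 CPM in scrambled control and at 115, 106, and 101 CPM in IFNγR1KO libraries, and although the groups did not overlap the adjusted p was 0.384. Apaf1, the scaffold of the apoptosome, and Aen, a nuclease, had log2 fold changes of -0.18 and -0.00. Pidd1, which activates caspase-2, was lower in every IFNγR1KO library at 9.77 ± 1.87 against 14.4 ± 1.65 CPM (SD, n = 3), with an adjusted p of 0.0723. It was called lower in 2 of 6 fits that left out a library and in 1 of 7 other alternatives.

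Several death genes were near or at 0. Pmaip1, which encodes the BH3-only protein NOXA, had 0 counts in all 6 libraries, and a count of 0 allows up to 3 counts per library. Perp, a membrane protein of desmosomes, had 1 count in IFNγR1KO library 10 and 0 elsewhere. Of the death receptors, Fas had 0, 0, and 1 counts in scrambled control and 0, 1, and 2 counts in IFNγR1KO libraries. Eda2r, the receptor of ectodysplasin A2, had 0, 2, and 0 counts in scrambled control and 6, 3, and 7 counts in IFNγR1KO libraries. These 4 genes stayed below the filter, and Eda2r had an adjusted p of 0.0223 in edgeR when no filter was applied and no adjusted p in DESeq2.

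Tnfrsf10b, the mouse receptor of the death ligand TRAIL, was the death receptor that could be tested. It was at 8.90, 6.67, and 8.50 CPM in scrambled control and at 6.82, 7.04, and 6.61 CPM in IFNγR1KO libraries. The groups overlapped, and the log2 fold change was -0.23 (95% confidence interval -0.67 to 0.21; adjusted p = 0.503).

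Growth arrest and signaling genes held the largest change among the 27 genes. Trp53cor1 (chr17:29057430-29079179, minus strand), the long noncoding RNA also named lincRNA-p21, lies next to Cdkn1a. It was at 3.37, 2.69, and 3.09 CPM in scrambled control and at 9.80, 8.13, and 7.59 CPM in IFNγR1KO libraries, a 2.79-fold rise with a log2 fold change of 1.48 ± 0.23 (SE; adjusted p = 0.00118). Each IFNγR1KO library was above every control. Exons of AC167363.1 on the other strand cover 44.1% of its exonic bases, and AC167363.1 was higher by 1.38 on the log2 scale, so that the strand from which these reads came is uncertain.

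Its neighbor Cdkn1a (chr17:29090976-29100727, plus strand), which is not among the 32 genes, behaved otherwise. It was at 107, 167, and 154 CPM in scrambled control and at 142, 145, and 177 CPM in IFNγR1KO libraries. The groups overlapped, the log2 fold change was 0.12 (95% confidence interval -0.26 to 0.49; adjusted p = 0.718), and leaving out scrambled control library 1, its lowest, turned the estimate to -0.05. Its promoter held the only pair of decamers without a mismatch among those shown above. The second decamer of that pair is followed directly by a near match to the decamer that is not in capitals, and which of these p53 binds was not tested.

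Btg2 (chr1:134075170-134079120, minus strand), an antiproliferative protein that recruits the CCR4-NOT deadenylase, was at 2.39, 2.39, and 2.80 CPM in scrambled control and at 5.82, 4.88, and 6.19 CPM in IFNγR1KO libraries. The groups were well apart at this low level. The log2 fold change was 1.15 ± 0.25 (SE; adjusted p = 0.00808) and the call held in all 6 fits without a library.

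Cd82 (chr2:93419111-93463140, minus strand), a tetraspanin known as a metastasis suppressor, was at 34.5, 40.5, and 37.8 CPM in scrambled control and at 60.8, 51.7, and 58.3 CPM in IFNγR1KO libraries. The rise was 1.51-fold with no overlap between groups (log2 fold change 0.60 ± 0.14, SE; adjusted p = 0.0114), and without IFNγR1KO library 10 the adjusted p was 0.0615.

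Gtse1 (chr15:85859745-85876573, plus strand), which encodes a microtubule-associated protein of the G2 and S phases that binds p53 and moves it out of the nucleus, was the gene that fell. It was at 61.6, 70.4, and 85.2 CPM in scrambled control and at 41.9, 38.7, and 49.5 CPM in IFNγR1KO libraries. The log2 fold change was -0.74 ± 0.16 (SE; adjusted p = 0.00802), and without IFNγR1KO library 11 the adjusted p was 0.0633.

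Phlda3, whose protein competes with AKT for membrane lipids, had the highest level per exonic length of all 32 genes. It was at 133, 156, and 131 CPM in scrambled control and at 97.9, 111, and 109 CPM in IFNγR1KO libraries. Every IFNγR1KO library was below every control, and the adjusted p was 0.0621 in edgeR and 0.0375 in DESeq2. The stress kinase genes Plk2 and Plk3 had log2 fold changes of 0.44 and 0.31 (adjusted p = 0.231 and 0.340), and Zmat3, an RNA-binding protein, had one of -0.09 (adjusted p = 0.794). Dram1, a lysosomal protein of autophagy, had 3, 3, and 5 counts in scrambled control and 3, 8, and 6 counts in IFNγR1KO libraries and was not tested.

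In the group of DNA repair and nucleotide supply, Rrm2b (chr15:37923952-37961318, minus strand), the p53-induced small subunit of ribonucleotide reductase, was the gene called with every library kept. It was at 25.6, 20.2, and 24.8 CPM in scrambled control and at 44.3, 36, and 32.3 CPM in IFNγR1KO libraries. The groups did not overlap (log2 fold change 0.67 ± 0.16, SE; adjusted p = 0.0164), whereas the adjusted p was 0.0834 without scrambled control library 2 and 0.0918 without IFNγR1KO library 10. The antisense gene Gm49085, which shares 8.04% of its exonic bases, was higher by 1.05 on the log2 scale.

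Ddb2, which recognizes ultraviolet damage, was at 16.6, 13.8, and 12.2 CPM in scrambled control and at 20.3, 21.4, and 16.9 CPM in IFNγR1KO libraries, without overlap and with an adjusted p of 0.10. It was called higher in 1 of 6 fits that left out a library. Its opposite-strand neighbor Acp2, over 23.8% of its exonic bases, had a log2 fold change of 0.49 beside 0.46 for Ddb2. Xpc, which starts global repair of bulky lesions, was at 21.8, 21.6, and 25.1 CPM in scrambled control and at 19.6, 23.7, and 29.8 CPM in IFNγR1KO libraries, with overlap and an adjusted p of 0.778. Polk, a translesion polymerase, was at 15.8 ± 1.14 and 17.7 ± 0.839 CPM (SD, n = 3; adjusted p = 0.531).

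Members that share over 5% of their exonic bases with another gene included 4 of the 9 higher genes, namely Rchy1, Siah1a, Trp53cor1, and Rrm2b, and the partner on the other strand was higher for each of the 4. Without the members that share over 5%, Mdm2, Trp53inp1, Bbc3, Btg2, and Cd82 were left as the 5 higher genes and Gtse1 as the 1 lower gene of 20, with a median log2 fold change of 0.13. Of all genes tested, whatever their overlap, 7.73% were called higher and 7.62% lower. Whether reads of the partners entered these counts was not tested.

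Levels per kilobase of exon allowed the genes to be ordered. In scrambled control cells, Phlda3 was at 89.7 ± 9.13 CPM per kb, Bax at 49.7 ± 12.4 and Ccng1 at 38.4 ± 6.04 (SD, n = 3). Gtse1, Trp53, Ei24, and Mdm2 followed between 26.4 and 23.3 CPM per kb and lay within each other's spread. At the low end of the tested genes stood Trp53inp1, Trp53cor1, and Btg2, at 0.786, 0.817, and 0.921 CPM per kb, which did not differ beyond their spread. All 3 of these scarce genes were called higher, beside 7.73% of all genes tested. The next scarcest tested genes, Plk2 at 1.21 and Tnfrsf10b at 1.47 CPM per kb, were not called. Of the 7 abundant genes Mdm2 was called higher, Gtse1 was called lower, and the other 5 were not called, beside 15.3% of all genes called in either direction. Over all 32 genes the median level was 3.69 CPM per kb in scrambled control and 4.35 CPM per kb in IFNγR1KO.

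**Figure D3:**
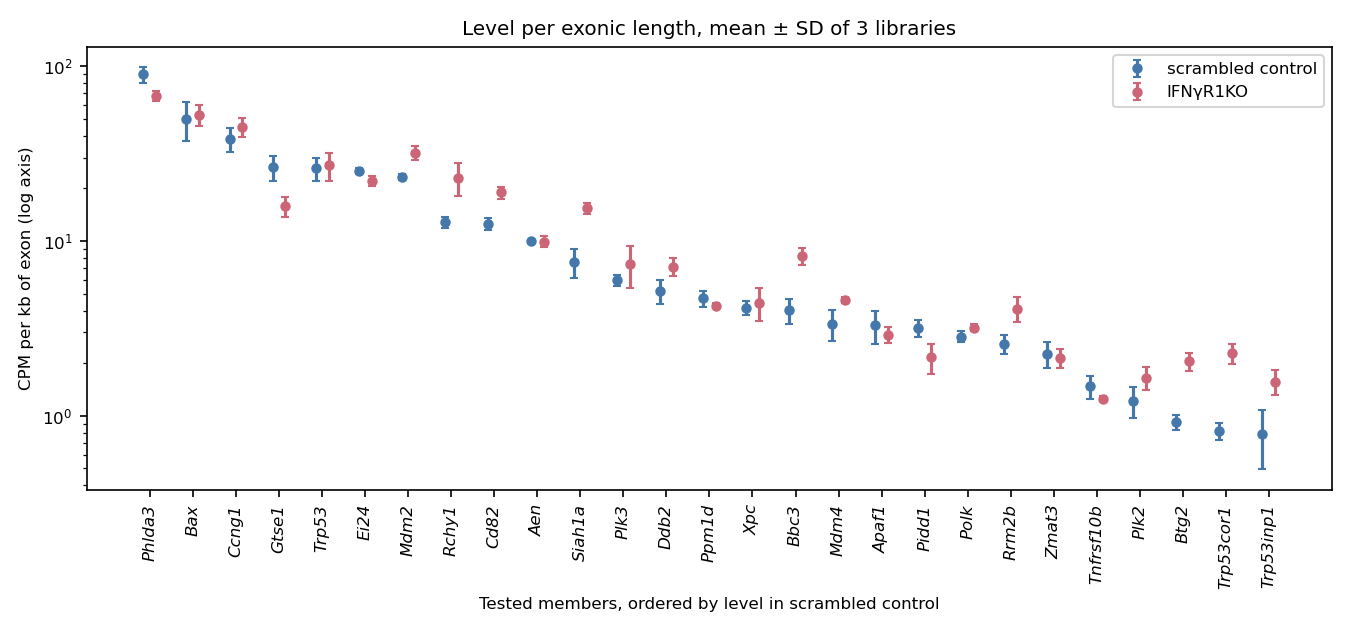
Level of the 27 tested genes in CPM per kb of exon on a log axis, mean and SD of 3 libraries in each group, ordered by the level in scrambled control. The range runs from 89.7 CPM per kb for Phlda3 to 0.786 for Trp53inp1 in scrambled control, and the IFNγR1KO points lie above the control points most clearly for Bbc3, Siah1a, and the low genes Btg2, Trp53cor1, and Trp53inp1.

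Further p53 targets were examined to place these genes, in a list of 34 of which 29 passed the filter. In it 5 genes were higher and 4 lower, 31.0% in all beside 15.3% of all genes tested, with a median log2 fold change of 0.03. Gadd45a, a stress sensor that binds PCNA and stress kinases, was at 11.4, 13, and 11.3 CPM in scrambled control and at 86.8, 94.8, and 83.2 CPM in IFNγR1KO libraries, a log2 fold change of 2.89 (adjusted p = 1.4e-07). Ddit4 and Sesn2, inhibitors of mTORC1, had log2 fold changes of 1.75 and 1.53. Pml, the scaffold of nuclear bodies and also an interferon-induced gene, was lower by a log2 fold change of -1.10 (adjusted p = 0.00132), and Ckap2 and Ptp4a3 were lower with -0.64 each. E230016M11Rik on the strand opposite to Gadd45a shares 19.1% of its exonic bases and had a log2 fold change of 3.03.

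The 3 further targets with the largest changes are also known targets of ATF4 or CHOP, the transcription factors of the integrated stress response. Of 7 such genes, 5 passed the filter and 4 were higher, namely Gadd45a, Ddit4, Sesn2, and Bbc3, beside 7.73% of all genes called higher, while Tnfrsf10b was not called and Pmaip1 and Gdf15 were not tested. Their summed level was 95.7 to 112 CPM in scrambled control and 341 to 364 CPM in IFNγR1KO libraries. Atf4 itself was at 518, 605, and 453 CPM in scrambled control and higher in each IFNγR1KO library, by 1.13 on the log2 scale (adjusted p = 0.000748). Ddit3, which encodes CHOP, exceeded its control level by 3.13 on the log2 scale (adjusted p = 4.56e-07). The part of these factors in the rise of Bbc3 was not tested.

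Upstream regulators and partners of p53 showed no gene that was higher among 29 tested of 33, and 4 that were lower, 13.8% beside 15.3% of all genes tested. The count of higher genes was 1 at an unadjusted p under 0.05 in edgeR and 0 in DESeq2 and limma-voom. Chek1, the checkpoint kinase of stalled replication, was at 45.1, 46.4, and 42.4 CPM in scrambled control and at 22.9, 26.6, and 22.2 CPM in IFNγR1KO libraries (log2 fold change -0.90, adjusted p = 0.00129). Setd7, a methyltransferase of p53, and Atm, the kinase of double-strand breaks, were lower with log2 fold changes of -0.86 and -0.95, the latter with adjusted p-values of 0.0636 without IFNγR1KO library 10 and 0.0832 without library 11. Atr and Chek2 were not called (adjusted p = 0.552 and 0.603). Cdkn2a and the family member Trp63 had 0 counts in every library, and Trp73 had 1 count in all.

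A list of cell cycle genes that p53 is known to lower through p21 and the DREAM repressor complex was also counted. Many other signals act on the same genes, and the part of p53 in their level here was not tested. All 20 passed the filter, 16 were lower, and 0 were higher in edgeR (0 also at an unadjusted p under 0.05, in DESeq2 and in limma-voom), 80.0% in all beside 7.62% of all genes called lower. The median log2 fold change was -0.72. Plk1, a mitotic kinase, was at 108, 132, and 139 CPM in scrambled control and at 51.3, 50.3, and 65.2 CPM in IFNγR1KO libraries (log2 fold change -1.18, adjusted p = 0.000419). Cdk1, the kinase of mitotic entry, and Kif2c, a microtubule depolymerase of centromeres, were lower with log2 fold changes of -1.05 and -1.01. In these bulk libraries, fewer dividing cells and less RNA of these genes per cell cannot be told apart. Gtse1 is expressed in the same phases, and its log2 fold change was -0.74 beside the median of -0.72.

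**Figure D4:**
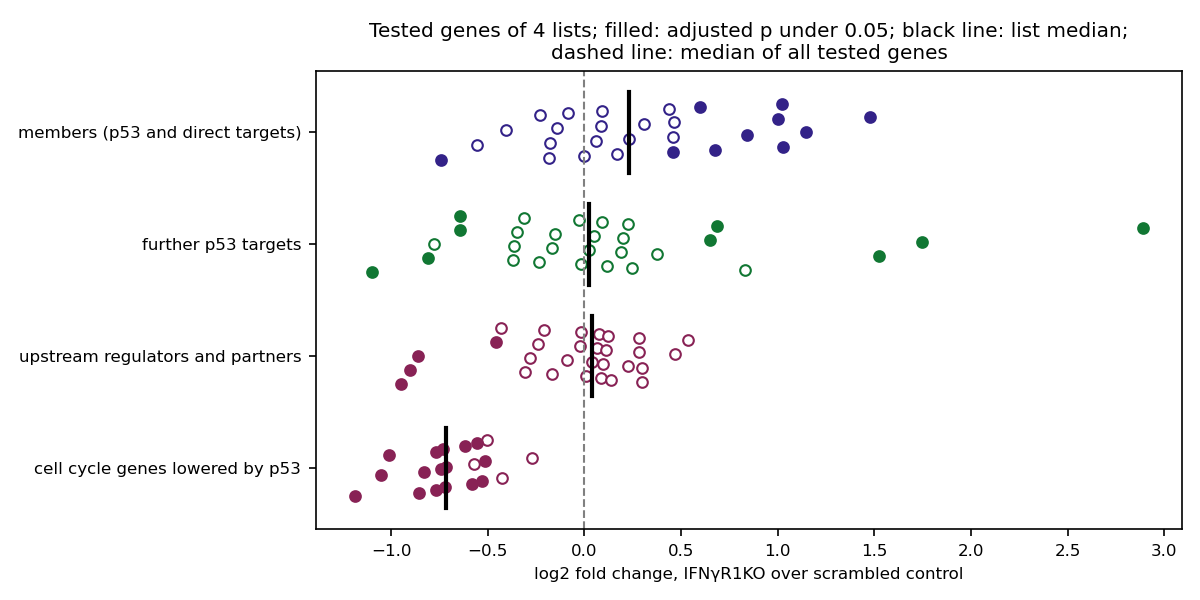
Log2 fold changes, IFNγR1KO over scrambled control, of the tested genes of 4 lists: the 27 members, 29 further p53 targets, 29 upstream regulators and partners, and 20 cell cycle genes that p53 is known to lower. The part of p53 in their level here was not tested. Filled points have an adjusted p under 0.05, black lines are list medians (0.23, 0.03, 0.04, and -0.72) and the dashed line is the median of all 13642 genes tested; the cell cycle genes lie below 0 throughout, and the other lists spread to both sides.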

How the data were processed

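Raw read counts per gene, 1 table per library, were deposited by the authors, who had mapped their paired-end reads with STAR 2.7.5a (GRCm38) and counted them with htseq-count (HTSeq 0.11.2). The annotation release and strand setting are not given in the sources used here. Reads that fell on no feature made up 46.9% to 47.7% of each table and were left out.

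From these counts, symbols, positions, and exonic lengths were assigned with GENCODE M21 (55154 of 55335 identifiers found). edgeR 4.0.16 in R 4.3.3 was run on all 6 libraries with filterByExpr (minimum count 10, minimum total 15), TMM factors, the quasi-likelihood test, and Benjamini-Hochberg adjustment. CPM were scaled by TMM-adjusted totals. The genes and lists were chosen with earlier results of these data known. Values in every library are given for Trp53, Mdm2, each gene called, and up to 2 genes per role with the highest CPM per kb. Up to 3 called genes per direction are named from the other lists by smallest adjusted p. Alternatives were DESeq2 1.42.0, limma 3.58.1 (voom), other normalizations, filters and thresholds, leaving out each library, and thinning to equal totals, which was added after the data were seen. Each test was first tried on simulated counts with known changes. An exact permutation test of 3 against 3 libraries cannot give a p under 0.1.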

Additional observations from a re-analysis of the deposited data

How the results depend on the processing

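No paired analysis was run because the libraries carry the numbers 1, 2, and 3 in scrambled control and 10, 11, and 12 in IFNγR1KO, so that the labels give no pairs. Scrambled control library 3 correlated more with IFNγR1KO library 12 (r = 0.970) than with libraries 10 and 11 (0.950 and 0.958). Whether libraries 3 and 12 share a factor was not tested. Leaving out each library in turn, the number of higher genes was between 5 (without IFNγR1KO library 10) and 11 (without IFNγR1KO library 12), fits in which 7.78% and 20% of all genes were called in place of 15.3%, the number of lower genes between 0 and 2, the number of higher DEGs between 2 (without scrambled control library 3) and 5, and the median log2 fold change between 0.19 and 0.31. DESeq2 called 9 genes higher and 2 lower, where 13.2% of all genes tested were called. Without a filter on low counts, where 11.3% of all genes tested were called, 2 genes were lower and 3 were higher DEGs. The median was then 0.41 over 31 genes. At an adjusted p under 0.01 in edgeR, 5 genes were higher and Gtse1 was lower (adjusted p = 0.00802). The share of all genes called at 0.01 was not counted. Tested against a log2 fold change of 1, 0 genes were DEGs, so that the 5 DEGs exceed this limit by their estimates only. Thinned to the smallest total, 3 genes were higher DEGs, in a fit where 14.5% of all genes tested were called. Without genes that share over 5% of exonic bases, 5 were higher, beside 7.73% of all genes tested, and the median was 0.13. The causes of these shifts were not tested. The other normalizations and limma-voom left these counts within 1.5 times.

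For 44 single genes under 13 alternatives, 538 of 572 results kept their direction and their side of the threshold, 16 lost the call, 7 gained it and 11 changed sign. The sign changes concerned genes that were not called. Leaving out a library gave log2 fold changes from -0.106 to 0.166 for Trp53, -0.0450 to 0.306 for Bax, -0.266 to 0.0144 for Apaf1, -0.0332 to 0.0564 for Aen, -0.168 to 0.0651 for Zmat3, -0.0801 to 0.226 for Xpc, and -0.0548 to 0.241 for Cdkn1a, and scaling by total count gave 0.0483 for Aen. Depth limits the 5 untested genes, which had 0 to 8 counts per library.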
